A study of Gallus gallus with 48 samples.

Results

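The lung-enriched genes of the chicken are the 150 genes, of 17108 in the deposited table, whose mean level in lung stood furthest above their level in brain, heart and liver. The members were chosen by these same FPKM values. Each gene needed a mean of at least 10 FPKM over the 12 lung libraries, which 5830 genes had, and these were ranked by the log2 ratio of the lung mean plus 1 to the highest of the brain, heart and liver means plus 1. FPKM, is a level scaled to transcript length and to the mapped fragments of a library, so that levels of different genes can be set side by side. CH25H, KRT14, ACTG2 and ADAMTS7 were to be left out of the list, and none of them would have entered it. CH25H stood at rank 200 and ACTG2 at rank 523, while KRT14 and ADAMTS7, at lung means of 3.39 and 3.21 FPKM, were under the minimum.

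The libraries came from chickens (Gallus gallus) of 2 types at 2 altitudes. TC were Tibetan chickens at 3300 m, HLC lowland chickens at 3300 m, LTC Tibetan chickens at 670 m and LC lowland chickens at 670 m, with 3 lung libraries in each of the 4 groups. The codes HLC and LTC are not spelled out in the labels and were read from their letters and the labelled altitude. The labels give no sex, age, breed, day of sampling or time spent at an altitude, nor do they tell if each library stands for its own bird, and p-values therefore measure the spread between these libraries, which may be technical. The depth of the libraries is unknown, because the files hold FPKM only. The 12 lung columns summed to between 452395 and 572875 FPKM, and between 10824 and 11325 genes reached 1 FPKM in them.

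In the bird lung, air passes in 1 direction through small rigid tubes, the parabronchi, whose walls open into a net of air capillaries wrapped in blood capillaries. Surfactant proteins, ion channels and secreted defence proteins belong to its epithelium, and matrix proteins, integrins and proteases to the connective tissue that holds the tubes. The thin walls that separate air from blood, and the ability of the airway lining to call in immune cells, are what the tissue is best known for.  In bulk libraries such as these, fewer cells of a type and less RNA per cell cannot be told apart.

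Only 9 of the 150 members (6%) could be given a gene symbol, against 6.92% of all genes in the table. They were CLIC3, CCL20, GNAT3, KRT19, ATP11A, CD9, ITGA8, MMP11 and SMOC2. Symbols were at hand only for genes that the linked study listed as positively selected, so these 9 may not stand for the members as a whole. The other 141 carry an Ensembl identifier that no source used here pairs with a name, and they are described by identifier or by count. No lung-defining surfactant or gas-exchange gene (SFTPA1, SFTPC, NKX2-1 and 11 others, 14 in all) had a symbol, so that the tissue label could not be checked against them. Among the 18 genes with a symbol on the 17 marker and pathway lists, which hold 211 genes, the epithelial adhesion gene CDH1 had a median of 31.7 FPKM in lung against 0.104 FPKM in brain and 0.0416 FPKM in heart, and 64.7 FPKM in liver. RAMP2, a receptor partner of vascular endothelium, had a median of 296 FPKM in lung and 86.9 FPKM in heart. FLT1, the other endothelium gene with a symbol, went the other way. Its lung median of 2.358 FPKM was below those in heart and in brain (3.696 FPKM). The smooth muscle actin ACTG2 had 160 FPKM in lung and 53.9 FPKM in heart. The airway genes CCDC39 and DNAH5 were low in lung, at medians of 0.913 and 0.706 FPKM, though above their medians in the other tissues.

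The enrichment of the members, on the log2 scale of the rule, ran from 2.52 to 10.4 with a median of 3.35. Their mean lung levels ran from 10.03 to 6133 FPKM with a median of 34.3 FPKM. A mean of at least 1000 FPKM was found for 8 members, of at least 100 FPKM for 34, and of under 20 FPKM for 30. Brain was listed as the next highest tissue for 57 members, heart for 48 and liver for 45. The 57 hold the 9 members listed at 0 in all 36 libraries of the other tissues. For these the tissues tied, and brain was taken only because it came first in order. For 118 members every lung library lay above all 36 libraries of the other tissues, and for the other 32 at least 1 did not. Together the members held between 3.31% (LC1) and 7.22% (LTC1) of the FPKM of a lung library. All of these values follow from the rule and carry no test.

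At the edge of the list, the last 2 places went to ENSGALG00000022696, at an enrichment of 2.526, and ENSGALG00000026769, at 2.522. Just outside stood ELF3, an epithelial transcription factor, at 2.521 and ENSGALG00000010049 at 2.519. The list has no gap at its end.

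**Figure D1:**
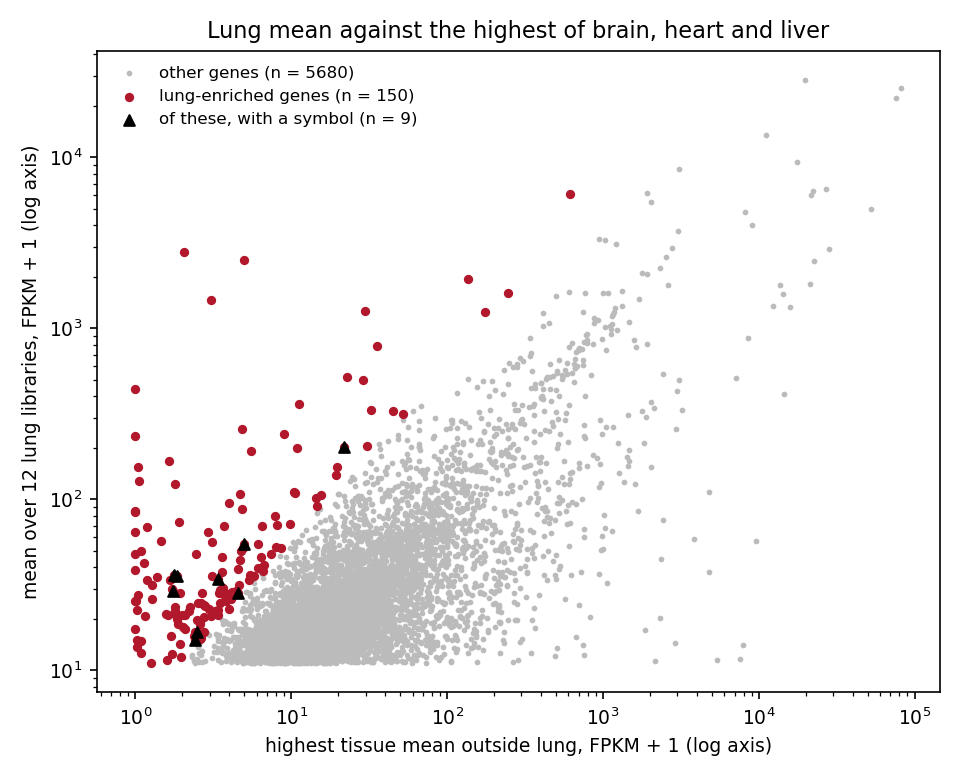
Mean level over the 12 lung libraries (FPKM + 1, log axis) against the highest of the brain, heart and liver means (FPKM + 1, log axis) for the 5830 genes with a lung mean of at least 10 FPKM; each point is a gene. The 150 lung-enriched genes (red) form the upper left edge of the cloud, and the 9 with a symbol (triangles) run from SMOC2 at 14.0 FPKM to CD9 at 202 FPKM in lung.

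The strongest enrichment belonged to ENSGALG00000026604, at 10.4 on the log2 scale. Its lung level was 3557, 3125 and 2768 FPKM in TC, 1844, 4586 and 2161 FPKM in HLC, 3904, 2153 and 2034 FPKM in LTC and 2197, 3045 and 2095 FPKM in LC, while its means in brain, heart and liver were 1.06, 0.676 and 0.657 FPKM. The 4 groups overlapped. The difference between altitudes (3300 m minus 670 m) was 0.21 ± 0.25 (SE) on the log2 scale, with an adjusted p of 0.60 in limma.

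ENSGALG00000002503 followed at an enrichment of 8.99. It stood at 986, 2184 and 2474 FPKM in TC, 1994, 2092 and 1507 FPKM in HLC, 4135, 5212 and 1972 FPKM in LTC and 989, 4633 and 2031 FPKM in LC. ENSGALG00000002496, at an enrichment of 8.90, stood at 729, 1275 and 1525 FPKM in TC, 955, 1778 and 966 FPKM in HLC, 3094, 2791 and 1206 FPKM in LTC and 338, 1973 and 968 FPKM in LC. For both, LTC1 and LTC2 were the highest or among the highest libraries, the spread within LC was more than 4-fold, and the groups overlapped. Their altitude differences were -0.59 ± 0.39 (SE) and -0.26 ± 0.41 (SE) on the log2 scale, with adjusted p of 0.31 and 0.70.

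Some members owed their place to a few libraries. In lung, 138 of the 150 were above 0 in every library, and the other 12 were listed at 0 in at least 1. Of these, 11 were listed at 0 in at least 6 of the 12 libraries and 7 in 11, which leaves each of the 7 with a value in a single library: 3 in TC3 and 1 each in TC1, HLC1, LTC3 and LC2. An exact 0 in such a table can be a failed estimate, and 9 of these members were also listed at 0 in all 36 libraries of the other tissues. ENSGALG00000017858, with an enrichment of 8.79, was listed at 0 in 10 lung libraries and at 2776 and 2532 FPKM in LTC2 and LTC3. It was not tested, as were 7 further members, because the test required 1 FPKM or more in 3 or more lung libraries.

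ENSGALG00000021938, with an enrichment of 7.88, was listed at 0 in all libraries of TC, HLC and LC and at 715, 1094 and 1006 FPKM in LTC. No fold change is given against groups at 0. It passed the filter on low values only through the LTC libraries, so that its differences from the other groups were fixed by the filter and its tests carry no information. The counts for altitude, chicken type, their interaction, TC against LTC and LTC against LC hold it, and each is also given without it.

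**Figure D2:**
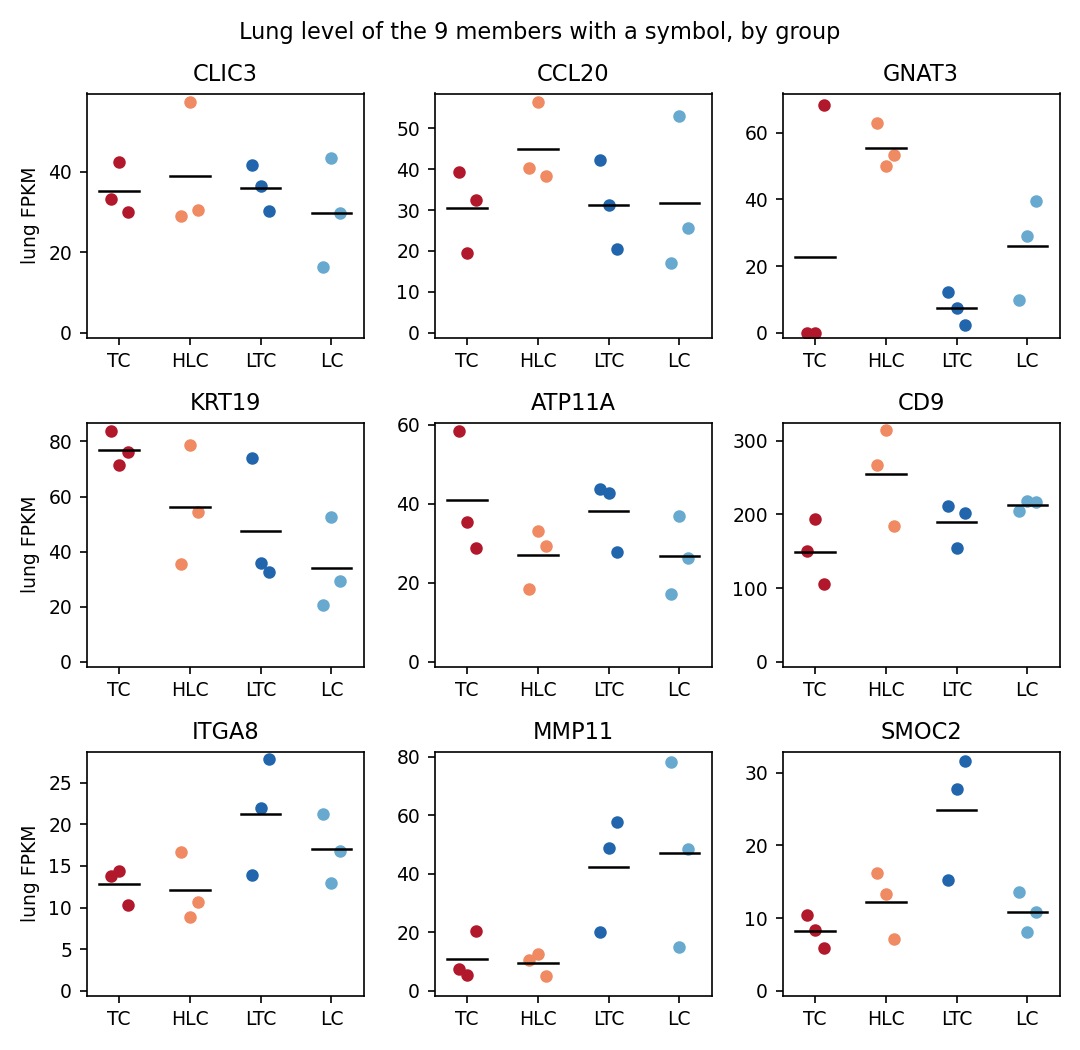
Lung level (FPKM, linear axes from 0) of the 9 lung-enriched genes with a symbol in the 4 groups; each point is a library and each bar the mean of 3. MMP11 lies at 10.2 FPKM on average at 3300 m against 44.7 FPKM at 670 m, TC3 stands apart from TC1 and TC2 for GNAT3, and the groups overlap widely for CLIC3, CCL20 and ATP11A.

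The first group of named members holds KRT19, CLIC3, ATP11A and GNAT3. The cells that express them were not resolved in these bulk libraries. KRT19, an intermediate filament keratin of simple epithelia, was at 83.7, 71.5 and 76.0 FPKM in TC, 35.4, 78.8 and 54.5 FPKM in HLC, 74.0, 35.8 and 32.7 FPKM in LTC and 20.6, 52.7 and 29.2 FPKM in LC. All TC libraries lay above all LC libraries, and the 2 altitudes overlapped through HLC1, LTC1 and LC2. The mean was 66.7 ± 18.3 FPKM (SD, n = 6) at 3300 m and 40.8 ± 19.4 FPKM (SD, n = 6) at 670 m. The altitude difference of 0.76 ± 0.27 (SE) on the log2 scale missed the threshold, with an adjusted p of 0.075. It passed without LC2 (adjusted p = 0.028), without LTC1 (0.027) and when the 48 libraries of all tissues were fitted together (0.046). The last fit takes the spread also from tissues where the members were chosen to be low. That can make a call easier, so its p cannot be weighed against that of the lung fit.

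CLIC3, a member of the chloride intracellular channel family, was at 33.4, 42.5 and 30.2 FPKM in TC, 29.0, 57.5 and 30.4 FPKM in HLC, 41.6, 36.6 and 30.2 FPKM in LTC and 16.4, 43.5 and 29.7 FPKM in LC. The lowest and the highest library were LC1 and HLC2. The groups overlapped, and the altitude difference was 0.19 ± 0.23 (SE) on the log2 scale (adjusted p = 0.61). ATP11A, a phospholipid flippase that moves phosphatidylserine to the inner face of the plasma membrane, was at 58.5, 35.4 and 28.7 FPKM in TC, 18.5, 33.0 and 29.4 FPKM in HLC, 43.7, 42.6 and 27.9 FPKM in LTC and 17.2, 36.8 and 26.2 FPKM in LC. Its group means were higher in Tibetan chickens, 40.9 and 38.1 FPKM in TC and LTC against 27.0 and 26.7 FPKM in HLC and LC, but the libraries overlapped and the type difference of 0.54 ± 0.23 (SE) on the log2 scale was not past the threshold (adjusted p = 0.32).

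GNAT3 encodes gustducin alpha, the G protein subunit of taste receptor signalling, which in mammals is also found in the chemosensory cells of the airway. Of the 9 it had the largest spread between libraries. Its level was 62.8, 50.0 and 53.4 FPKM in HLC, 9.96, 29.0 and 39.5 FPKM in LC, 12.3, 7.38 and 2.46 FPKM in LTC and 0.0919, 0.0457 and 68.3 FPKM in TC. TC3 thus held the highest level of all 12 libraries, and TC1 and TC2 the lowest. The type difference (Tibetan minus lowland) was -2.71 ± 0.91 (SE) on the log2 scale with an adjusted p of 0.23. Without TC3 it was -3.71 with an adjusted p of 0.011, and in the fit of all 48 libraries the adjusted p was 0.0030. The latter fit takes its spread also from tissues where GNAT3 was low by the rule. The altitude difference was 0.24 ± 0.91 (SE) with an adjusted p of 0.88, and its sign changed in 4 of the 20 alternative settings.

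Signalling and surface proteins made the second group. CCL20, a chemokine that draws lymphocytes and dendritic cells through the receptor CCR6, was at 39.3, 19.6 and 32.4 FPKM in TC, 40.2, 56.5 and 38.4 FPKM in HLC, 42.3, 31.1 and 20.4 FPKM in LTC and 17.1, 52.9 and 25.6 FPKM in LC. The groups overlapped, with an altitude difference of 0.29 ± 0.28 (SE) on the log2 scale (adjusted p = 0.49). As for CLIC3, LC1 was the lowest library and HLC2 the highest. CD9, a tetraspanin of the cell surface, was at 151, 193 and 105 FPKM in TC, 267, 314 and 185 FPKM in HLC, 211, 155 and 202 FPKM in LTC and 204, 218 and 218 FPKM in LC. The means at both altitudes were nearly the same, 202.5 ± 76.3 FPKM (SD, n = 6) at 3300 m and 201 ± 23.8 FPKM (SD, n = 6) at 670 m, and the altitude difference was -0.07 ± 0.17 (SE) on the log2 scale (adjusted p = 0.79). The spread among the 6 libraries at 3300 m came with a lower level in TC than in HLC, and only TC2 and HLC3 overlapped. The type difference of -0.48 ± 0.17 (SE) was not past the threshold (adjusted p = 0.24).

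Proteins of the matrix and of attachment to it made the third group, and their means were lower at 3300 m. MMP11, stromelysin-3, a metalloprotease of connective tissue cells, was at 7.34, 5.27 and 20.3 FPKM in TC and 10.5, 12.7 and 4.98 FPKM in HLC, against 20.2, 48.7 and 57.8 FPKM in LTC and 78.1, 14.9 and 48.3 FPKM in LC. Only TC3, which lay above LTC1 and LC2, kept the altitudes from lying apart. The mean fell from 44.7 ± 23.7 FPKM (SD, n = 6) at 670 m to 10.2 ± 5.81 FPKM (SD, n = 6) at 3300 m, and the difference was -1.97 ± 0.45 (SE) on the log2 scale, with an adjusted p of 0.014. It was -1.93 in Tibetan chickens (adjusted p = 0.068) and -2.01 in lowland chickens (0.10), and stayed past the threshold in all 20 alternative settings, with a highest adjusted p of 0.038 without LTC2. MMP11 was the only named member past the altitude threshold in lung.

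SMOC2, a calcium-binding matrix protein of the SPARC family, was at 10.5, 8.39 and 5.89 FPKM in TC, 16.2, 13.3 and 7.12 FPKM in HLC, 15.2, 27.7 and 31.6 FPKM in LTC and 13.6, 8.03 and 10.8 FPKM in LC. The LTC libraries lay above all TC and LC libraries, and HLC and LC overlapped. Over both types the altitude difference was -0.66 ± 0.23 (SE) on the log2 scale (adjusted p = 0.073). In Tibetan chickens SMOC2 fell by 1.45 on the log2 scale (adjusted p = 0.020). This did not hold when LTC2, LTC3, TC2 or TC3 was left out (adjusted p up to 0.079). In lowland chickens the difference was 0.12 ± 0.33 (SE) (adjusted p = 0.86), and the interaction was not past the threshold (adjusted p = 0.16).

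ITGA8, the alpha-8 integrin subunit of mesenchymal and smooth muscle cells, was at 13.8, 14.4 and 10.3 FPKM in TC, 16.6, 8.82 and 10.7 FPKM in HLC, 13.9, 22.0 and 27.8 FPKM in LTC and 21.2, 13.0 and 16.8 FPKM in LC. The altitudes overlapped. The altitude difference of -0.57 ± 0.19 (SE) on the log2 scale had an adjusted p of 0.067, which ranged from 0.0092 to 0.15 over the alternative settings. The lowest came from the fit of all 48 libraries, which takes its spread also from tissues where ITGA8 was low by the rule.

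Across all members, altitude was the lung comparison with the most members past the threshold. Of the 142 members tested, 36 passed the threshold of an adjusted p under 0.05 (25.4%), against 17.1% of the 11601 lung genes tested. Members higher at 3300 m were 21 (14.8%) against 5.57% of all genes tested. Members lower at 3300 m were 15 (10.6%) against 11.6% of all genes tested. Among the 5807 tested genes that also had a mean of at least 10 FPKM in lung, the shares were 18% called, 8.71% higher and 9.32% lower. The median altitude difference was 0.15 on the log2 scale over the members and -0.04 over all genes, and it was above 0 for 61.3% of the members and 43.8% of all genes.

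These counts depended on single libraries. Without LTC2 the members called were 19 (13.5%, with 10.1% of all genes called), without LTC3 21 (14.9% and 10.1%), without TC2 21 (15% and 11.5%), without HLC2 23 (16.2% and 14.4%) and without LC1 24 (16.9% and 11.8%). The share of members higher at 3300 m was above that of all genes in each of these fits, from 9.22% against 3.06% without LTC2 to 10.6% against 4.42% without HLC2. The share among genes with a lung mean of at least 10 FPKM was not taken for these fits. Among the 75 members with the largest enrichment, 12 were called, which is 17.9% of those tested and near the 17.1% of all genes. Of those tested 8.96% were higher at 3300 m, against 5.57% of all genes. Among tested genes with a lung mean of at least 10 FPKM the share was 8.71%, so the top 75 were near it. Of the 142 members tested, 32 had a mean under 10 FPKM in at least 1 group, and 10 of the 36 called members were among them. Only ENSGALG00000021938 among the 36 was listed at 0 in a whole group, and without it 35 of 141 members were called (24.8%).

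The members also varied more than the lung genes tested as a whole. Their median SD within a group was 0.465 on the log2 scale, against 0.204 over all lung genes tested, and 92.3% of the members were above the latter value. The lung genes tested include genes at low levels, and the SD over genes at a level like that of the members was not taken. LC1 was the lowest of the 12 libraries for 39 members, and HLC2 was the highest for 32. Over the 131 members with at least 1 FPKM in all 12 lung libraries, LC1 had a median deviation of -0.26 on the log2 scale from the median of a member. The part of this library spread in the counts above was not tested beyond leaving out each library.

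The altitude difference was then taken within each chicken type. In Tibetan chickens, TC against LTC gave 32 members past the threshold, 22.5% of those tested, against 12.1% of all genes, and 31 without ENSGALG00000021938. Of these, 15 were higher in TC (10.6%, against 3.46% of all genes) and 17 lower (12%, against 8.66%). Under a filter at a lung mean of at least 5 FPKM, 10% of the members and 4.45% of all genes were higher. When each library was scaled to the same upper quartile, the split was 15 higher and 11 lower. The count was 9 without LTC2 (6.38%, with 3.07% of all genes called), 10 without TC2 (7.14% and 4.06%), 15 without LTC3 (10.6% and 4.34%) and 16 without TC1 (11.3% and 7.3%). In lowland chickens, HLC against LC gave 5 members, 3.52%, against 3.89% of all genes. Of these, 4 were higher in HLC, against 1.37% of all genes, and 1 was lower, against 2.52%.

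A single member, ENSGALG00000009693, passed in both types. It was at 17.8, 20.2 and 40.9 FPKM in TC and 26.9, 11.9 and 20.6 FPKM in HLC, against 52.8, 86.0 and 67.1 FPKM in LTC and 80.3, 34.2 and 80.7 FPKM in LC. Only TC3 and LC2 overlapped across the altitudes. It fell by 1.53 on the log2 scale over both types (adjusted p = 0.0062), by 1.42 in Tibetan chickens (0.042) and by 1.64 in lowland chickens (0.048), and the calls within a type were lost in 9 and 12 of 20 alternative settings. Of the 36 members called for altitude, 32 had the same sign in both types. The altitude contrast averages the 2 types, so that members called by it tend to share a sign, and the count is no test of agreement. The 36 include ENSGALG00000021938, which was at 0 in both groups of lowland chickens.

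**Figure D3:**
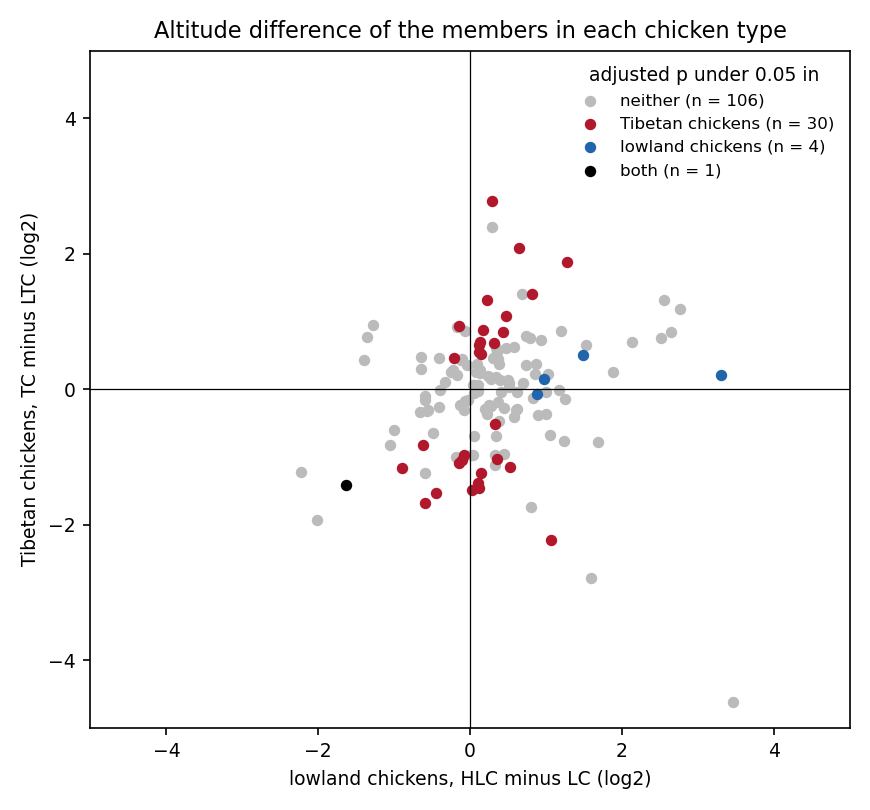
Altitude difference (log2 scale) of 141 tested lung-enriched genes in Tibetan chickens (TC minus LTC, vertical axis) and lowland chickens (HLC minus LC, horizontal axis); each point is a gene, and ENSGALG00000021938, listed at 0 in whole groups, is not drawn. Colours mark an adjusted p under 0.05 in limma: 30 genes in Tibetan chickens, 4 in lowland chickens, 1 in both and 106 in neither.

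The interaction tested whether the 2 types differed in their altitude difference. It was past the threshold for 2 members, against 0.509% of all genes, and for 1 of 141 (0.709%) without ENSGALG00000021938. The member left was ENSGALG00000001532, at 11.04, 12.2 and 9.81 FPKM in TC, 34.5, 32.8 and 30.7 FPKM in LTC, 13.2, 18.3 and 16.7 FPKM in HLC and 20.3, 13.7 and 13.8 FPKM in LC. Its LTC libraries lay above all others, its TC libraries below all others, and HLC and LC overlapped. It fell by 1.49 on the log2 scale in Tibetan chickens (adjusted p = 0.0012) and differed by 0.02 in lowland chickens (adjusted p = 0.95), with an interaction of -1.51 ± 0.23 (SE) and an adjusted p of 0.026. The interaction call was lost in 9 of the 20 alternative settings, among them the fits without HLC3, LC2, LC3, TC2, TC3 or any 1 LTC library, with adjusted p up to 0.081.

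Among the members past the altitude threshold, the 2 with the largest differences above 0 were ENSGALG00000026823 and ENSGALG00000002314. ENSGALG00000026823 was at 79.1, 86.4 and 22.4 FPKM in HLC against 1.51, 10.8 and 4.76 FPKM in LC, and at 14.7, 13.0 and 10.4 FPKM in TC against 17.9, 8.14 and 8.51 FPKM in LTC. The HLC libraries lay above all others, and TC and LTC overlapped. It rose by 1.75 ± 0.41 (SE) on the log2 scale (adjusted p = 0.016) over both types. The difference was 3.30 in lowland chickens (adjusted p = 0.012, and 0.053 without HLC2) and 0.21 in Tibetan chickens (0.86), and the interaction was not past the threshold (0.12). ENSGALG00000002314 was at 16.1, 18.9 and 8.76 FPKM in TC and 20.4, 15.96 and 11.3 FPKM in HLC, against 4.95, 0.698 and 5.56 FPKM in LTC and 4.62, 5.91 and 7.19 FPKM in LC. All 6 libraries at 3300 m lay above all 6 at 670 m, and the difference was 1.58 ± 0.32 (SE) on the log2 scale (adjusted p = 0.0095).

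Below 0, beside ENSGALG00000021938, the largest difference past the threshold among members without a symbol was that of ENSGALG00000028575. It was at 4.75, 34.8 and 6.23 FPKM in TC and 10.5, 4.50 and 1.28 FPKM in HLC, against 18.6, 30.1 and 30.1 FPKM in LTC and 27.2, 19.97 and 23.7 FPKM in LC. TC2 was the highest of all 12 libraries, and the other 5 at 3300 m lay below all at 670 m. It fell by 1.72 on the log2 scale (adjusted p = 0.029), and the call was lost in 8 of the fits that left out 1 library (HLC2, HLC3, LC1, LC3, LTC2, LTC3, TC1 or TC3), with adjusted p up to 0.068.

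All 6 libraries at 3300 m lay above all 6 at 670 m for 2 of the 142 members tested, against 1.34% of all genes, and below them for 1, against 3.66% of all genes. Beside ENSGALG00000002314, the first kind was ENSGALG00000010738, at 25.8, 29.0 and 25.5 FPKM in TC and 45.1, 33.5 and 42.1 FPKM in HLC, against 24.4, 24.5 and 22.8 FPKM in LTC and 21.7, 20.2 and 17.6 FPKM in LC. It rose by 0.57 ± 0.09 (SE) on the log2 scale (adjusted p = 0.0025) over both types and by 0.98 in lowland chickens (adjusted p = 0.0025). In Tibetan chickens the difference was 0.16 (adjusted p = 0.435), and the interaction of -0.82 was not past the threshold (adjusted p = 0.0635). The second kind was ENSGALG00000019553, at 7.82, 3.62 and 4.91 FPKM in TC and 10.7, 9.95 and 10.03 FPKM in HLC, against 35.1, 11.2 and 17.1 FPKM in LTC and 12.3, 18.9 and 17.2 FPKM in LC. It fell by 1.14 on the log2 scale (adjusted p = 0.011) over both types. The difference was -1.685 in Tibetan chickens (adjusted p = 0.0135, and 0.0578 without TC2) and -0.59 in lowland chickens (0.355).

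The smallest adjusted p among the members higher at 3300 m was that of ENSGALG00000014934, 8.95e-04. It was at 97.7, 104 and 111 FPKM in TC and 86.9, 134 and 68.5 FPKM in HLC, against 28.1, 17.9 and 26.1 FPKM in LTC and 75.4, 52.2 and 53.0 FPKM in LC. Only HLC3 and LC1 overlapped across the altitudes, and the LTC libraries were the lowest. It rose by 1.36 ± 0.17 (SE) on the log2 scale over both types and by 2.09 in Tibetan chickens (adjusted p = 0.0014), with 0.64 in lowland chickens (0.16). ENSGALG00000009693, ENSGALG00000010738, ENSGALG00000019553, ENSGALG00000014934 and ENSGALG00000028404 are outside the rule for named members and were added once the values were known.

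**Figure D4:**
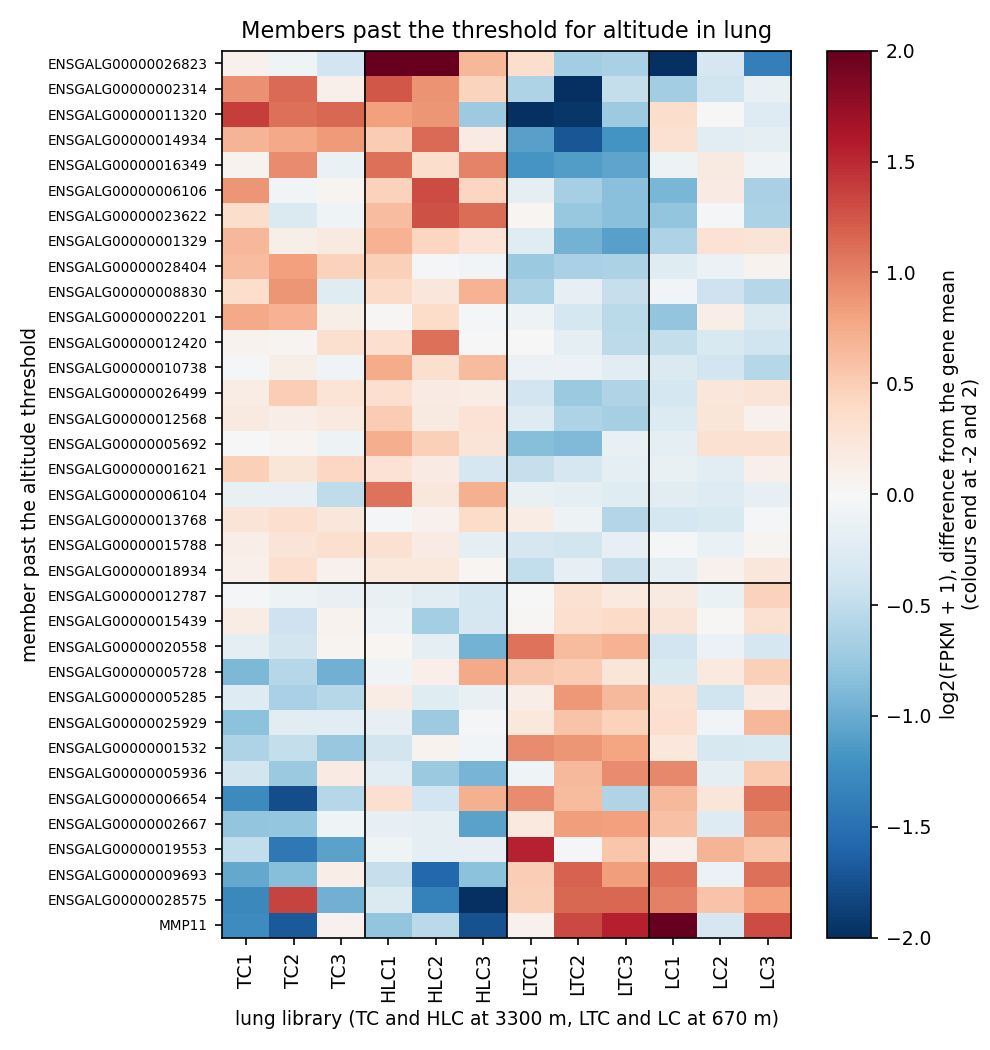
The 35 lung-enriched genes past the altitude threshold in lung, ENSGALG00000021938 left out, in the 12 lung libraries; colour is log2(FPKM + 1) minus the mean of the gene, red above and blue below, with the colours ending at -2 and 2. The 21 genes higher at 3300 m stand above the horizontal line and the 14 lower ones below it, and single libraries go against their group, such as TC2 for ENSGALG00000028575 and LC2 for MMP11.

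Chicken type was past the threshold for 2 members, against 0.0431% of all genes, and for 1 of 141 (0.709%) without ENSGALG00000021938. The member left was ENSGALG00000017405, which in Tibetan chickens was at 128, 137 and 130 FPKM in TC and 116, 111 and 99.3 FPKM in LTC, against 174, 287 and 257 FPKM in HLC and 200.5, 285 and 357 FPKM in LC. All 6 libraries of Tibetan chickens lay below all 6 of lowland chickens, at both altitudes. It was lower by 1.08 ± 0.15 (SE) on the log2 scale in Tibetan chickens, with an adjusted p of 0.042, and its altitude difference was 0.03 ± 0.15 (SE). The type call was lost in 10 of the 12 fits that left out 1 library, all but those without HLC1 or LC1, with adjusted p up to 0.15, as well as with a pseudocount of 0.1 (0.051) and without a filter on low values (0.0706).

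The types were also compared at each altitude. TC against HLC gave 0 members past the threshold in limma, against 0.526% of all genes. LTC against LC gave only ENSGALG00000021938, and thus 0 without it, with 33 at an unadjusted p under 0.05, against 0.069% of all genes past the threshold. When the 48 libraries of all tissues were fitted together, 12 members passed for TC against HLC (8.45%, with 1.53% of all genes) and 14 for LTC against LC (9.86%, with 2.28% of all genes). In that fit the spread of a gene is taken over all tissues, and the members were chosen to be low outside lung. The rule alone can thus raise these counts, and nothing is concluded from them.

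By group, HLC held the highest mean for 34.5% of the members tested and for 30.0% of all genes. LTC held it for 26.8% of the members and 36.5% of all genes, TC for 25.4% and 16.3%, and LC for 13.4% and 17.2%. The share of members highest in TC or HLC was thus above that of all genes, and the share highest in LTC or LC below it.

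Few other genes could be named beside the members. Of the 211 genes on the 17 lists, 17 had a symbol and were tested, and 6 passed for altitude in lung. Over all lung genes tested 17.1% were called, 5.57% higher and 11.6% lower. The basal keratin KRT14, at a low lung median of 3.60 FPKM, was higher at 3300 m by 1.21 on the log2 scale (adjusted p = 0.024). The matrix genes COL5A1 (-0.84, adjusted p = 0.0056), COL6A2 (-1.01, 0.020) and SPARC (-1.19, 0.0076) were lower, 3 of the 4 tested from the matrix list, and so were the T cell co-stimulatory receptor CD28 (-0.84, 0.018) and the neuronal tubulin regulator STMN2 (-2.18, 0.0013). STMN2 ran from 5.68 to 61.9 FPKM across the lung libraries, with a median of 319 FPKM in brain. The part of these genes in the fall of MMP11 was not tested.

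In the other tissues most members were low by construction, and fewer could be tested. In brain 4 of 78 members were past the altitude threshold, 5.13% against 2.26% of all brain genes. All 4 were higher at 3300 m, as were 229 of the 263 brain genes called. In heart 0 of 85 passed in limma, against 0.0193% of all heart genes. At an unadjusted p under 0.05 there were 7 members, and the share of all heart genes at that p was not taken. In liver 33 of 76 passed, 43.4% against 51.3% of all liver genes, with 8 higher and 25 lower. Over all liver genes 969 were higher and 4136 lower. Under a filter at a mean of 5 FPKM in the tissue, brain gave 0 members and liver 11. Fewer members pass that filter, being low there by the rule, so these counts cannot be set beside those above.

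KRT19 was the named member past the threshold in both brain and liver. Its altitude difference was 0.86 in brain (adjusted p = 0.046) and 0.53 in liver (0.0092), beside 0.76 in lung (0.075), at medians of 3.71 FPKM in brain and 2.24 FPKM in liver. MMP11 fell by 2.40 on the log2 scale in liver (adjusted p = 9.56e-05), ITGA8 fell by 0.88 (2.29e-04) and CD9 by 0.42 (0.0031). All 3 were low in liver, at medians of 1.145, 0.908 and 1.28 FPKM, and MMP11 ran from 0.0435 to 15.7 FPKM there. Of the members past the threshold in both lung and liver, some went opposite ways. ENSGALG00000010738, ENSGALG00000028404, ENSGALG00000013768 and ENSGALG00000001621 were higher at 3300 m in lung and lower in liver. The others shared a sign. MMP11, ENSGALG00000009693, ENSGALG00000002667, ENSGALG00000025929, ENSGALG00000012787 and ENSGALG00000015439 were lower in both, and ENSGALG00000026823 was higher in both. ENSGALG00000010738, at a liver median of 1.76 FPKM, differed by 0.57 in lung and -0.60 in liver (adjusted p = 0.0025 and 0.015). In lung ENSGALG00000028404 was at 78.2, 90.6 and 70.2 FPKM in TC and 71.2, 50.0 and 48.6 FPKM in HLC. It was at 29.8, 31.9 and 32.2 FPKM in LTC and 42.9, 46.8 and 53.4 FPKM in LC, and only HLC2 and HLC3 overlapped with LC3. It differed by 0.77 in lung and -0.73 in liver (adjusted p = 0.0017 and 5.92e-04). The difference between tissues was not tested, and in liver the median over all genes was -0.25 on the log2 scale.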

How the data were processed

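The RNA-seq table of the series was used, with 48 libraries from 4 tissues of Tibetan and lowland chickens from 3300 m or 670 m, 3 per tissue and group. The deposited values are FPKM per Ensembl gene, which the authors made with TopHat and Cufflinks 2.2.1 on the galGal4 assembly, as the submitters' processing notes name them. The annotation release, options, strand setting and read filters were not given in the sources used here, and the linked study describes no RNA-seq test. FPKM holds no counts, so that depth is unknown, no counting interval can be given and no count model was used. Genes of families with near-identical copies may share reads.

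Symbols came from the identifier and symbol columns of a supplementary gene list of the linked study, 1184 genes (6.92%). That list holds genes which the study reported as positively selected in chicken breeds. The genes with a symbol are therefore no neutral sample of the genes in the table. The RefSeq table at hand matched 0 of the identifiers, so that no coordinates and no sequences are shown.

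Per tissue, genes that reached 1 FPKM in 3 or more of 12 libraries were fitted with limma 3.58.1 in R 4.3.3 on log2(FPKM + 1), 1 mean per group, moderated with a trend. Fold changes on this scale understate the change of low genes. Altitude stands for TC and HLC, averaged, minus LTC and LC, averaged, type for TC and LTC minus HLC and LC in the same way, and the interaction for TC minus LTC, less HLC minus LC. Tests were 2-sided and adjusted with the Benjamini-Hochberg method over all genes tested in the tissue, with a threshold of 0.05. The fit was also run on simulated data with independent noise in each gene and library. Those data held no shift of a whole library, so that run does not bear on the library spread described above.

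The members, the marker and pathway lists and the tests were chosen with earlier results of these data known. Named in the text are all members with a symbol, the 5 others with the largest enrichment, and for altitude, type and interaction up to 2 largest past the threshold in each direction. Alternatives were a pseudocount of 0.1, no filter, a mean of at least 5 FPKM, quantile and upper quartile scaling, no trend, all 48 libraries in 1 fit, the replicate number as a block, each library left out, and members by median, as the top 75 or from a lung mean of at least 5 FPKM. After the data were seen, members listed at 0 in a whole group, or under 1 FPKM in any lung library, were also left out.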

Additional observations from a re-analysis of the deposited data

Results flagged for a closer look

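The interaction term, which compares the altitude difference between Tibetan and lowland chickens, was past the threshold for 2 members. ENSGALG00000021938 had an adjusted p of 2.1e-10 for the interaction, with values in the LTC libraries and a listing at 0 in the other 9 lung libraries. It passed the filter only through LTC, so that this p carries no information on the types. ENSGALG00000001532 had an adjusted p of 0.026 for the interaction, with a fall of 1.49 on the log2 scale in Tibetan chickens beside a difference of 0.02 in lowland chickens. This call was lost in 9 of 20 alternative settings, with adjusted p up to 0.081. Groups of 3 libraries are too small for a test of single outlying samples.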

How the results depend on the processing

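Altitude gave 36 members past the threshold, and between 27 and 41 under the other scalings, filters, fits and definitions of the members. The exception was the top 75, with 12 (17.9%, with 17.1% of all genes). With 1 library left out, the range was 19 to 38 for altitude, 9 to 34 for TC against LTC, 2 to 12 for HLC against LC, 0 to 1 for TC against HLC, 0 to 5 for LTC against LC, 0 to 5 for the interaction, 0 to 2 for type, 0 to 5 in brain and 27 to 37 in liver, and 0 in heart. In the fit of all 48 libraries, HLC against LC gave 21 members (14.8%, with 5.15% of all genes), the interaction 15 (10.6%, 1.89%), LTC against LC 14 (9.86%, 2.28%), type 12 (8.45%, 2.36%) and TC against HLC 12 (8.45%, 1.53%). The spread in that fit includes tissues where the members were low by the rule. Its larger shares can thus come from the choice of the members. With a mean of at least 5 FPKM the interaction gave 4 (2.67%, with 0.799% of all genes) and TC against HLC 1 (0.667%, 0.569%). Brain gave 0 and liver 11 under that filter, which fewer members pass there. With quantile normalization the interaction gave 4, 2 higher and 2 lower (2.82%, with 0.672% of all genes), and LTC against LC 4 (2.82%, 0.19%). Type gave 1 with a pseudocount of 0.1 (0.704%, with 0.0259% of all genes) and 1 without a filter (0.667%, 0.0132%). Brain gave 2 with a pseudocount of 0.1 and 1 with upper quartile scaling. For brain, heart and liver the shares of all genes were taken in the main fit only. The top 75 gave 11 for TC against LTC (16.4%, with 12.1% of all genes) and 1 for HLC against LC (1.49%, with 3.89%). Members by median, of which 125 were shared with the main list, gave 1 for type (0.667%, with 0.0431% of all genes) and 1 for the interaction (0.667%, 0.509%). Without members listed at 0 in a whole group, and likewise with only members of at least 1 FPKM in all 12 lung libraries, type gave 1, the interaction 1 and LTC against LC 0.

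The replicate numbers are shared by the groups, but in none of the 6 pairs of lung groups were all 3 correlations of same-numbered libraries over 0.1, so that the numbers were not taken to pair the libraries. With the number as a replicate block, altitude gave 27 members (19%, with 13.7% of all genes) and TC against LTC 20 (14.1%, 8.79%). HLC against LC gave 4 (2.82%, 2.75%) and the interaction 1 (0.704%, 0.0776%), with an adjusted p of 0.0725 for ENSGALG00000001532. Type gave 2 (1.41%, 0.0603%), LTC against LC 1 (0.704%, 0.00862%) and TC against HLC 0. In the other tissues brain gave 0, heart 0 and liver 33.

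Of 1168 alternative values for the members named, 1098 kept their side of the threshold, 59 lost a call, 11 gained one and 0 changed sign while past the threshold; 24 that were never past it changed sign. The cause of these changes was not tested. The 1168 include the values of ENSGALG00000021938 for altitude, type, interaction and TC against LTC, 17 each. All of these kept their call, but they were fixed by the filter and say nothing on stability. The values of the 5 members added once the values were known are included too. Unknown depth leaves the precision of low values open.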

Other observations

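Several sets of members, picked after their values were seen, moved together in single libraries. ENSGALG00000006572, ENSGALG00000006835 and ENSGALG00000006591 were at 292, 261 and 197 FPKM in HLC3 and at 16.4, 21.5 and 15.5 FPKM in TC2, while none of the other 10 lung libraries was above 4.28 FPKM for any of them. They were among 30 genes with at least 10 FPKM in HLC3 and at least 5 times the level of every other lung library. A further condition was a level above 0 in at least 1 other lung library. By the same conditions the other 11 lung libraries had between 0 and 5 such genes each. Genes listed at 0 in all lung libraries but 1 are thus not in these counts. The altitude differences of these 3 members were 1.64, 1.98 and 1.75 on the log2 scale, with adjusted p of 0.27, 0.28 and 0.29. ENSGALG00000006835 reached 1 FPKM only in HLC3, TC2 and TC1 (1.03 FPKM), all at 3300 m. It thus passed the filter on low values only through that altitude, and its altitude test carries no information. It stays among the members tested and was not called.

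ENSGALG00000016943, ENSGALG00000027716 and ENSGALG00000011930 were low in LC1, LC3 and LTC2. ENSGALG00000016943 was at 0.0215, 0.827 and 2.12 FPKM in these and between 18.0 and 139 FPKM in the other 9 lung libraries. ENSGALG00000027716, far more abundant, was at 136, 246 and 155 FPKM in these and between 568 and 3263 FPKM in the others. ENSGALG00000011930 was at 0.325, 1.34 and 2.89 FPKM in these and between 5.25 and 37.3 FPKM in the others. LC2 and TC1 were the highest libraries for ENSGALG00000016943, at 134 and 139 FPKM, and for ENSGALG00000027716, at 3263 and 2350 FPKM. None of the 3 passed the altitude threshold (adjusted p of 0.26, 0.36 and 0.65).

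ENSGALG00000017857, at rank 128, was listed at 0 in 6 lung libraries and at 453 to 7272 FPKM in the other 6, with HLC1 the highest. ENSGALG00000017828, at rank 144, was likewise listed at 0 in 6, and at 564 to 707 FPKM in the other 6. Of the 12 lung libraries, LTC3 and TC1 were above 0 for both.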
